A study of Cavia porcellus with 30 samples.

Results

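In primary cultures of epithelial cells from the renal proximal tubule of guinea pigs, 84 of the 25824 transcripts measured by RNA-seq were higher after 12 h at the high dose of mercuric chloride and stood near their vehicle level both at the low dose at 12 h and at the high dose at 24 h. They were chosen by a rule on TPM (a transcript level corrected for its length and for sequencing depth). For each dose and time, the log2 difference from vehicle was taken between group means, with 0.5 TPM added to each mean. A transcript was a member if its highest group mean was at least 1 TPM, its difference at 40 µM and 12 h was at least 0.8, and its differences at 30 µM and 12 h and at 40 µM and 24 h both lay between -0.3 and 0.3. These 3 differences are therefore described below without a test. The only libraries that entered none of these differences are those of 30 µM at 24 h. Tests were run on the contrasts that hold them, with vehicle or 40 µM at 24 h on the other side, whose libraries the rule did use.

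The cells came from kidneys of Hartley guinea pigs aged 6 to 8 weeks. Tubules isolated from the cortex were cultured to an epithelial monolayer, and the replated cells received either vehicle (Hepatocyte Maintenance Medium) or mercuric chloride at 30 µM (low dose) or 40 µM (high dose). RNA was taken after 12 h or 24 h, with 5 libraries in each of the 6 groups. Library totals ran from 21651452 to 35021210 estimated counts. The sources do not say whether the 5 libraries of a group came from separate animals or cultures, so p-values measure the spread between these libraries, which may be technical. Glomeruli were removed during isolation, but the transcripts carry Ensembl identifiers with no gene names, and the identity of the cells could not be checked against marker genes. In such bulk samples, fewer cells of a kind and less RNA per cell cannot be told apart.

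The proximal tubule is the kidney segment that reabsorbs most of the filtrate, and it takes up and accumulates inorganic mercury. Mercuric ions bind thiol groups of proteins and of glutathione, which disturbs redox balance and protein folding and starts stress responses. No gene name or sequence could be attached to the members, since none of the identifiers (0 of 25824) was found in the gene table at hand. What the members do is therefore not described.

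The limits of the rule removed most of the transcripts that were higher at the high dose. Of 15909 transcripts with a mean of at least 1 TPM in some group, 640 (4.02%) had a 12 h difference at 40 µM of at least 0.8. Most of these were also higher at the low dose, since 476 (74.4%) had a difference above 0.3 there and 13 (2.03%) one below -0.3. The low-dose limit left 151, of which 58 were still more than 0.3 above vehicle at 40 µM and 24 h and 9 were more than 0.3 below it. The remaining 84 are 13.1% of the 640, and the other 556 serve below for comparison. The mirror image of the rule, for lower levels, found 57 transcripts.

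**Figure D1:**
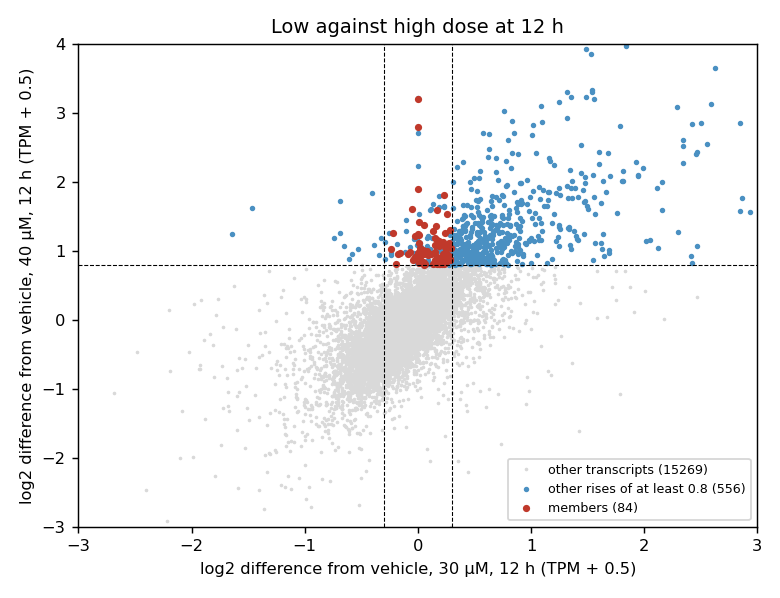
Log2 difference from vehicle at 12 h for each of the 15909 transcripts with a group mean of at least 1 TPM, at 30 µM (x axis) and 40 µM (y axis), with the limits of the rule as dashed lines. The 84 members (red) fill the narrow column between -0.3 and 0.3 above 0.8, while most of the other 556 transcripts above 0.8 (blue) lie to its right, and 16 transcripts fall outside the axes.

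At the high dose and 12 h the members had a median difference of 0.96 log2 units from vehicle, with quartiles of 0.86 and 1.12 and a highest value of 3.20. Most were thus close to the limit. Between 0.8 and 0.9 there were 31 members, 20 lay between 0.9 and 1, 16 between 1 and 1.2, 15 between 1.2 and 2, and 2 above 2. The distribution did not break at the limit, as 49 transcripts that met the other conditions had a difference between 0.7 and 0.8 and 75 between 0.6 and 0.7. The 3 members nearest the limit had differences of 0.801, 0.804 and 0.804, and the first of them went from 11.6 TPM in vehicle to 20.6 ± 3.39 TPM (SD, n = 5) at 40 µM. The 3 transcripts just outside had differences of 0.799, 0.799 and 0.793, and the most abundant of these went from 209 to 363 ± 54.8 TPM. The members are therefore the upper end of a continuous range.

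The members were mostly of low abundance. Their mean level at 40 µM and 12 h had a median of 3.65 TPM and ranged from 0.617 to 205 TPM, while the median over the 15909 transcripts in the same libraries was 11.8 TPM. By this level 25 members were under 2 TPM, 36 between 2 and 10 TPM and 23 at 10 TPM or more. In estimated counts the means per library ran from 0.8 to 20584, with 9 members under 10 counts, 28 between 10 and 100, and 47 at 100 or more. The median length was 1966.5 bases, against 2418 bases over the 15909 transcripts, and 11 members (13.1%) were shorter than 500 bases, against 5.02% of the 15909. The other 556 transcripts were also short, with a median of 1773 bases and 12.1% under 500 bases. In 43 members (51.2%, against 61.4%) the estimate was not a whole number in some library, a sign that reads were divided between transcripts, and their level is uncertain.

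The median over the 84 members, taken in each library relative to the 12 h vehicle mean, gives the pattern in 1 value. In the vehicle libraries at 12 h it lay between -0.05 and 0.02 log2 units. In the 5 low-dose libraries it was 0.18, 0.10, 0.11, 0.09 and -0.02. In the 5 high-dose libraries it was 0.83, 0.97, 0.90, 1.195 and 0.73, with a mean of 0.92 ± 0.17 (SD, n = 5). At 24 h it lay between -0.05 and 0.00 in vehicle and between -0.01 and 0.06 at 40 µM. The high-dose libraries at 12 h stood apart from the 25 others, as the choice of members requires. The 5 low-dose libraries at 24 h, which the rule used in none of its differences but only in the minimum level, gave 0.12, -0.02, 0.00, 0.00 and -0.21, with a mean of -0.02 ± 0.12. They spread around the vehicle level, and replicate 5 was the lowest library of all 30. The median over all 15909 transcripts was also lowest in the low-dose replicates 5, at -0.20 at 12 h and -0.19 at 24 h, against -0.12 to 0.03 in the other 28 libraries, and its part in the result was not tested.

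**Figure D2:**
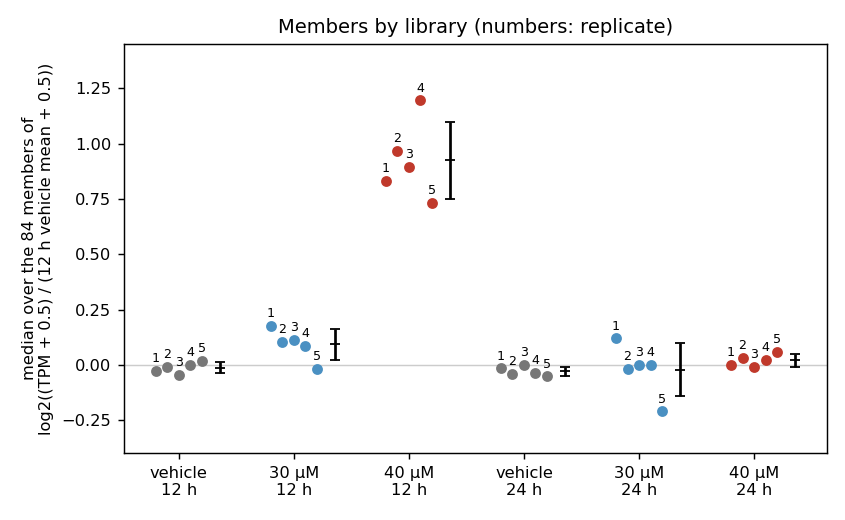
Median over the 84 members of the log2 ratio to the 12 h vehicle mean (0.5 TPM added), 1 point per library with its replicate number, and mean with SD (n = 5) beside each group. The 40 µM libraries at 12 h lie between 0.73 and 1.195 with replicate 4 on top, and the other 25 libraries lie between -0.21 and 0.18.

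The members differed in how evenly the 5 high-dose libraries shared the rise. In 62 members (73.8%) all 5 high-dose libraries lay above all 5 vehicle libraries at 12 h, which held for 12.8% of the 15909 transcripts. In 12 members 4 of the 5 libraries did so, in 3 members 3 libraries, in 4 members 2 libraries and in 3 members only 1. The 5 libraries also lay above all 5 low-dose libraries in 52 members (61.9%, against 9.81%) and above all 25 other libraries in 47 (56%, against 5.30%). Since the rule used these contrasts, the shares describe the evenness of the members and are no result about them.

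Abundance went with evenness. Among the 23 members at 10 TPM or more, 22 separated fully from vehicle and 21 from all 25 other libraries, and the median SD of the log2 level over the high-dose libraries was 0.23. Among the 25 members under 2 TPM these counts were 16 and 10, and the median SD was 0.50. The exception among the abundant members was a transcript of 1355 bases in which high-dose replicate 5 (10.1 TPM) was below the highest vehicle library (11.5 TPM), while the other 4 high-dose libraries had from 16.9 to 18.8 TPM. In the vehicle libraries at 12 h the median SD was 0.12 in the abundant and 0.21 in the rare class, and over the 15909 transcripts it was 0.15 at 40 µM and 0.12 in vehicle. These libraries also chose the members, and the 0.5 TPM added lowers the SD at low levels, so the values are a description.

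**Figure D3:**
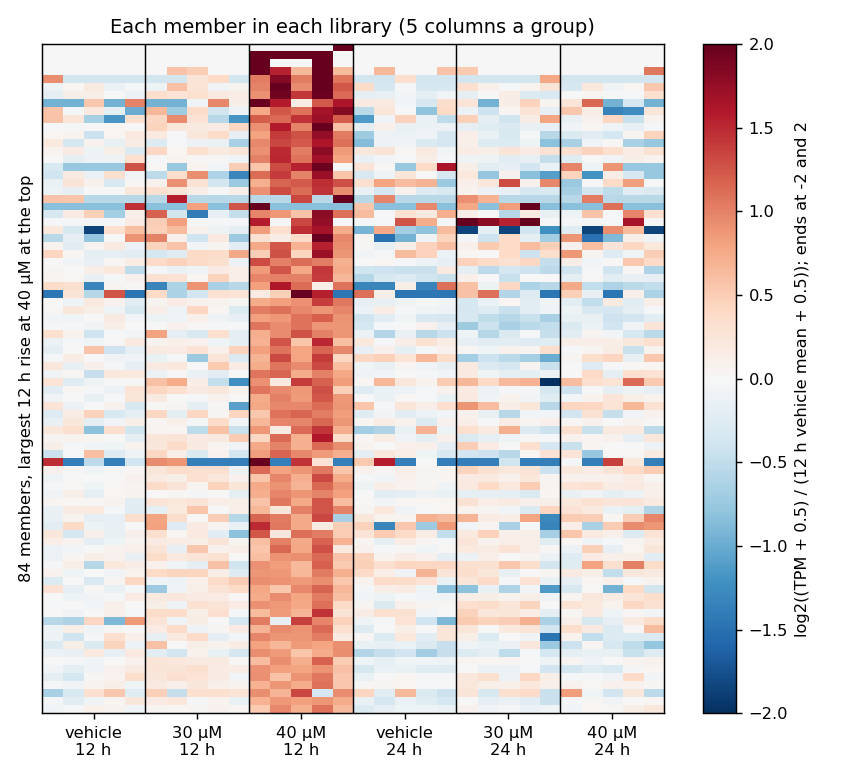
Log2 ratio to the 12 h vehicle mean for each of the 84 members (rows, largest rise on top) in each of the 30 libraries (columns, 5 per group, replicates 1 to 5 from left to right), with colour ends at -2 and 2. The third block, 40 µM at 12 h, is raised in nearly all rows and most deeply in its column for replicate 4, and the top rows are coloured in only some of its columns.

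High-dose replicate 4 carried more of the rise than the other libraries. It was the highest of the 5 in 58 members (69%), against 45.3% of the other 556 transcripts and 25.7% of all 15909, a comparison that is descriptive because the same libraries chose the members. Replicates 4 and 2 were together the 2 highest in 33 (39.3%) of the members, in 35.4% of the other 556 and in 12.4% of all 15909. Replicate 5 was the lowest in 32 members (38.1%), in 33.5% of the other 556 and in 31.6% of all 15909. Over all 15909 transcripts, too, replicate 4 had the largest share at least 0.8 above the vehicle mean, 6.10% against 3.73% to 4.81% in the other 4 libraries of its group. Its median over all 15909 was -0.05 log2 units relative to vehicle, beside -0.12 to -0.02 in the other 4 libraries of its group. The part of these in the result was not tested. Its depth of 23464210 estimated counts was the lowest of the group. Without replicate 4, the median difference of the 84 members was 0.89 in place of 0.96, and 25 of them fell short of 0.8. Without any other single high-dose library, from 5 to 11 fell short. Leaving out replicate 4 thus removed the most members, while leaving out replicate 5 changed the selection most in number, to 117 transcripts with 79 of the 84 among them.

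**Figure D4:**
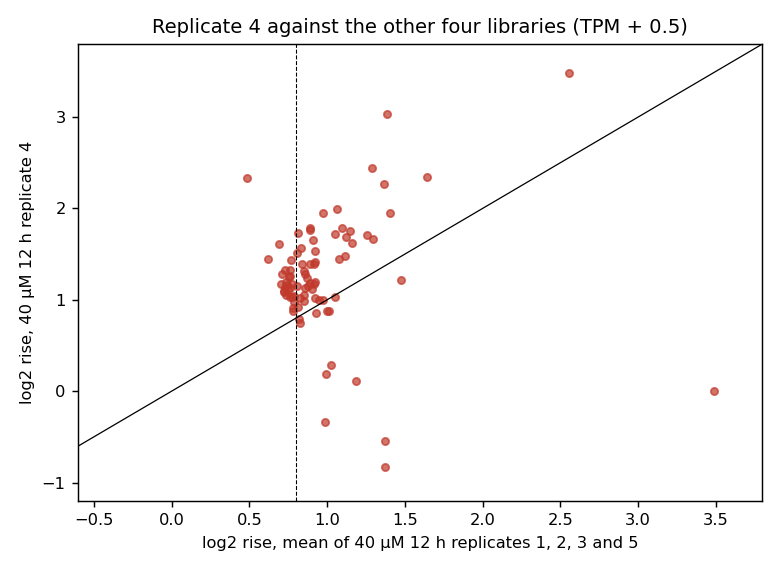
Log2 rise of the 84 members at 40 µM and 12 h in replicate 4 (y axis) against the mean of replicates 1, 2, 3 and 5 (x axis), with the diagonal and, dashed, the limit of 0.8. Above the diagonal are 70 members, and 25 members lie left of the limit.

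ENSCPOT00000037181.1 (1245 bases, whole estimates) had the largest rise among members with whole estimates, at least 5 TPM at the high dose and no overlap with vehicle. In the 12 h vehicle libraries it had 2.28, 2.34, 1.498, 2.27 and 2.59 TPM. At 30 µM it had 2.57, 2.12, 2.65, 3.00 and 1.91 TPM, within and just above that range. At 40 µM it had 4.20, 6.64, 6.01, 8.61 and 5.06 TPM. All 5 high-dose libraries lay above the low-dose and vehicle libraries, with a mean of 6.10 ± 1.68 TPM (SD, n = 5) against 2.20 ± 0.410 in vehicle, a difference of 1.29 log2 units. At 24 h it had 1.77 ± 0.382 TPM in vehicle, 1.92 ± 0.431 at 30 µM and 2.12 ± 0.644 at 40 µM, and these groups overlapped. In the contrast of 30 µM with vehicle at 24 h its log2 fold change was 0.14 (SE 0.23, edgeR adjusted p = 0.774). The level rests on 71 to 141 counts per high-dose library.

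ENSCPOT00000022659.2 (450 bases, whole estimates) was the most abundant member. The vehicle libraries at 12 h held 123, 118, 99.6, 105 and 117 TPM and the low-dose libraries 126, 125, 122, 136 and 117 TPM. The high-dose libraries held 172, 228, 190, 255 and 182 TPM, again with replicate 4 on top and replicate 2 next. The lowest of them was above the highest low-dose library, and the mean of 205 ± 34.7 TPM (SD, n = 5) stood 0.86 log2 units above the vehicle mean of 113 ± 10.0. At 24 h the means were 113 ± 9.85, 119 ± 14.7 and 115 ± 7.38 TPM in vehicle, at 30 µM and at 40 µM. Its log2 fold change at 30 µM and 24 h was 0.09 (SE 0.06, edgeR adjusted p = 0.333), and 0.13, past the threshold, without low-dose replicate 5.

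Replicates 4 and 2 were also the highest in a fractional member of 3501 bases, the ninth in abundance. It had from 30.1 to 31.4 TPM in the vehicle libraries at 12 h, from 34.4 to 42.1 TPM at 30 µM, and 58.1, 93.0, 62.0, 124 and 46.2 TPM at 40 µM. Here the low-dose libraries lay above all vehicle libraries, although the difference of 0.29 log2 units was within the limit. At 24 h none of its 15 libraries exceeded 33.1 TPM.

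The comparison of the doses at 12 h asks how much of the high-dose difference was present at 30 µM. In the members the low-dose mean stood at a median of 9.60% of the way from vehicle to the high-dose mean, with a range from -16.3% to 26.6%. The differences at 30 µM had a median of 0.15 log2 units and were above 0 in 69 of 84 members (82.1%), against 31% of the 15909 transcripts, whose median was -0.09. Relative to that median the members stood 0.24 log2 units higher. With TPM rescaled by TMM factors (a scaling for library composition) the median was 0.18 in the members and -0.05 in all. The rule used this difference and took the 40 µM difference from the same vehicle mean, so these values describe the members and are no result about them. All 5 low-dose libraries lay above all 5 vehicle libraries in 4 members (4.76%, against 5.30% of the 15909 transcripts) and below them in 0 (against 17.0%).

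The step from 30 µM to 40 µM had a median of 0.88 log2 units, from 0.58 to 3.20. Counted library by library, from 36 to 75 of the 84 members were at least 0.8 above the vehicle mean in a high-dose library at 12 h, against 1 to 5 members in a low-dose library and 0 to 5 in a vehicle library. Over all 15909 transcripts, 3.73% to 6.10% passed that mark in a high-dose library and 2.08% to 2.65% in a low-dose library. These counts, too, come from contrasts that the rule used.

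Some members were near the limit of detection, and their differences depend on the 0.5 TPM added. The 3 largest differences, of 3.20, 2.79 and 1.90, belong to transcripts with no count in the 25 other libraries, where a count of 0 allows up to 3 counts. The first (777 bases, fractional estimates) had 195 estimated counts in high-dose replicate 5 and 0 in the other 4 high-dose libraries. The second (207 bases) had 4, 4, 3, 5 and 0 counts in the 5 libraries, and the third (159 bases) had 2 counts in each of replicates 1 and 4. Another member (411 bases) had no count in vehicle at 12 h, 1 count in 2 low-dose libraries, and 10, 4, 1, 7 and 1 counts at the high dose. The last 3 of these had at most 10 counts in any high-dose library, and the first was seen in 1 library.

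At 24 h the high-dose level of the members had a median difference of 0.02 log2 units from vehicle, inside the limits of the rule. All 5 high-dose libraries lay above all 5 vehicle libraries in 8 members (9.52%, against 8.72% of the 15909 transcripts) and below them in 0 (against 10.1%). The vehicle level of the members moved little between the times, with a median of -0.02 log2 units at 24 h relative to 12 h and quartiles of -0.11 and 0.10. In vehicle, then, the members had no change between the times of the size seen at 40 µM.

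The low dose at 24 h shows the members after a longer exposure at 30 µM. On the TPM scale the median difference from vehicle was 0.03 log2 units over the 84 members and -0.03 over the 15909 transcripts. Of the members 67 (79.8%) lay within 0.3 of vehicle, 8 above and 9 below, and of the 15909 transcripts 80.3% lay within 0.3. Among the other 556 transcripts, by contrast, 349 (62.8%) were more than 0.3 above vehicle. This last share is descriptive, since the vehicle libraries at 24 h also served the rule.

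On counts, 64 of the 84 members passed the filter on low values and were tested in edgeR by its quasi-likelihood method. The other 20 had too few counts, and of the 25 members under 2 TPM only 12 were tested. At 30 µM and 24 h, 13 of the 64 (20.3%) were called at an adjusted p under 0.1, against 21.0% of all 16607 transcripts. The members were thus called about as often as any transcript. Of these calls, 10 rose and 3 fell, where all transcripts gave 10.5% higher and 10.5% lower. The median log2 fold change of the tested members was 0.07, and their median SE was 0.17. The rises were small, from 0.15 to 0.56 log2 units and 7 of them were under 0.2, all in members at 10 TPM or more. Without low-dose replicate 5, the library with the lowest levels of these transcripts, 18 of 64 members were called, beside 4802 of all 16890 transcripts, while leaving out another library of either group gave 10 to 13.

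The 3 falls measured from -0.42 to -1.86 log2 units. ENSCPOT00000002292.3 (4827 bases, fractional estimates, level uncertain) had 2.06, 2.68, 2.78, 2.97 and 2.44 TPM in the vehicle libraries at 24 h and 1.51, 1.94, 1.58, 1.77 and 1.83 TPM at 30 µM. The groups did not overlap, and the log2 fold change was -0.55 (SE 0.12, edgeR adjusted p = 0.00978). At 12 h it had 2.78 ± 0.158 TPM in vehicle, 2.81 ± 0.109 at 30 µM and 5.97 ± 0.450 at 40 µM, with the 5 high-dose libraries between 5.53 and 6.48 TPM. This was one of the most even rises, and replicate 4 was here the lowest of the 5. At 40 µM and 24 h it had 2.56 ± 0.536 TPM and was 0.54 log2 units higher than at 30 µM but was not called (SE 0.15, edgeR adjusted p = 0.103). It was called under 4 alternatives, with an adjusted p of 0.0259 in DESeq2, 0.00306 in edgeR with all 30 libraries in one fit, 0.0811 in edgeR without low-dose replicate 5 and 0.0905 in edgeR without high-dose replicate 3.

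ENSCPOT00000046677.1 (3868 bases, fractional estimates, level uncertain) had 3.05, 2.54, 2.86, 3.29 and 2.92 TPM in vehicle at 24 h and 2.23, 2.13, 2.15, 2.07 and 2.11 TPM at 30 µM. All 5 low-dose libraries lay below the vehicle libraries, and the log2 fold change was -0.42 (SE 0.09, edgeR adjusted p = 0.00681). At 40 µM and 24 h it had 3.01 ± 0.211 TPM, higher than at 30 µM by 0.46 log2 units (SE 0.08, edgeR adjusted p = 0.0165). At 12 h it had 2.57 ± 0.272 TPM in vehicle and 2.58 ± 0.257 at 30 µM. At 40 µM it had 4.47, 6.82, 4.02, 8.27 and 4.18 TPM, so that replicates 4 and 2 stood above the other 3.

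**Figure D5:**
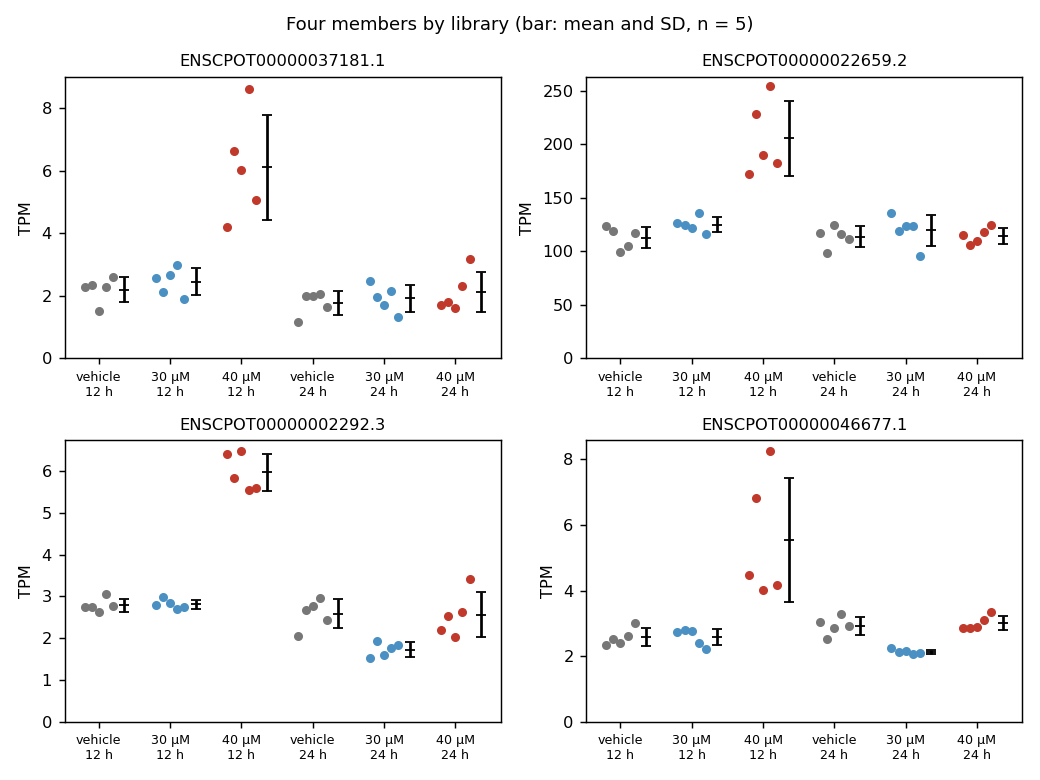
TPM of the 4 named members in each library, with mean and SD (n = 5) beside each group and axes that start at 0. In each panel the 40 µM libraries at 12 h are the highest, and in the lower 2 panels the 30 µM libraries at 24 h lie below the vehicle libraries of that time.

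The third member that fell at 30 µM and 24 h, of 2177 bases with a mean of 30.1 counts in these libraries, had the largest fall. It had from 1.13 to 1.65 TPM in vehicle and from 0.177 to 0.4999 TPM at 30 µM, with no overlap, and a log2 fold change of -1.86 (SE 0.27, edgeR adjusted p = 0.000724). At 40 µM and 24 h it had from 0.724 to 1.46 TPM. In the opposite direction, a member of 1971 bases had 2.00, 1.30, 0.997, 1.80 and 0 TPM at 30 µM and 24 h, against 0.220 ± 0.329 TPM (SD, n = 5) in vehicle. It was not called (log2 fold change 2.41, edgeR adjusted p = 0.228), and it was the 1 member whose mean reached 1 TPM only in these libraries. Over the members all 5 low-dose libraries at 24 h lay above vehicle in 2 (2.38%, against 6.48% of the 15909 transcripts) and below it in 3 (3.57%, against 10.1%).

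The doses were also compared directly at 24 h, a contrast that shares the low-dose libraries with the one above. The rule also held each member's 40 µM mean at 24 h within 0.3 log2 units of vehicle. A member that fell further than this at 30 µM therefore comes out higher at 40 µM than at 30 µM. At 40 µM, 2 of the 64 tested members were higher than at 30 µM and 0 were lower at an adjusted p under 0.1 in edgeR. Over all 16664 transcripts 3.58% were called, 1.70% higher and 1.88% lower. The 2 members were ENSCPOT00000046677.1 and the member of 2177 bases, at 1.62 log2 units (SE 0.32, edgeR adjusted p = 0.0298). Both had fallen at 30 µM against vehicle, so these calls largely repeat that contrast and are no separate result. At an unadjusted p under 0.05 there were 8 members of 64 in either direction, beside 2297 of the 16664 transcripts.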

How the data were processed

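RNA-seq libraries of 30 samples were analysed from the deposited per-library tables. The authors quantified reads against guinea pig transcripts, with kallisto 0.42.4 named in the submitters' processing notes, and deposited for each transcript its length, an estimated count and its TPM. The transcriptome release is not given in the sources used here. TPM values deposited by the authors were used for the rule, levels and figures. After rounding to integers, the estimated counts were tested with edgeR 4.0.16 (TMM factors, filterByExpr, quasi-likelihood F-test, Benjamini-Hochberg adjustment over all transcripts, adjusted p under 0.1), separately for 30 µM against vehicle and 40 µM against 30 µM at 24 h. Alternatives used DESeq2 1.42.0, limma 3.58.1, other scaling, filters and limits, a block and leaving out each library. The procedure was tested on simulated data.

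The members and lists were chosen with earlier results of these data known. The named transcripts are the member with the largest difference among those with whole estimates, at least 5 TPM and no overlap with vehicle at 12 h, the most abundant member with whole estimates, and the 2 called members with the largest fall at 30 µM and 24 h and a mean of at least 50 counts. Members outside this rule are given by length and were singled out after their values were seen. Planned gene lists and cell type markers could not be used, since 0 of 25824 identifiers matched the gene table. Replicates were numbered in accession order. Intervals for counts of 0 cover counting error only.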

Additional observations from a re-analysis of the deposited data

Results flagged for a closer look

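In ENSCPOT00000037181.1, replicate 3 of vehicle at 12 h had 1.498 TPM, apart from the other 4 vehicle libraries at 2.27 to 2.59 TPM. Its gap to the nearest library was 0.714 of the range of the group, above the critical value of 0.71 for 5 samples. Of 30 groups of 5 values examined, 1 passed this mark, where chance gives about 1.5.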

How the results depend on the processing

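The number of members depended on the limits. In place of 84 it was 33 with a minimum of 5 TPM, 152 with no minimum and 41 with whole estimates only. With TPM rescaled by TMM factors it was 69, and 67 of these were among the 84. Limits chosen after seeing the data gave 33 (a difference of at least 1), 41 (within 0.2) and 143 (within 0.4). Leaving out 1 library gave 64 to 117, with 64 without replicate 4 and 117 without replicate 5 of 40 µM at 12 h, and 23 members were found in all 25 such selections. Of the 84, 57 were among the 95 found with 0.1 TPM added in place of 0.5, 47 among the 76 found with 1 TPM added, and 40 among the 82 found with medians in place of means.

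For 30 µM against vehicle at 24 h, leaving out 1 library gave 10 to 18 called members, 2973 to 4802 called transcripts and a member median of 0.00 to 0.11, with 4802 and 18 without low-dose replicate 5. All transcripts split into 1752 higher and 1740 lower in edgeR and 1473 and 2308 in limma on log2(TPM + 1). For 40 µM against 30 µM, called transcripts were 597 in edgeR, 1147 in DESeq2, 313 at an adjusted p under 0.05, 1094 with all 30 libraries in one fit (4 members), and 263 to 1053 without 1 library (2 to 3 members), with 1053 without low-dose replicate 5. ENSCPOT00000037181.1 had -0.065 without replicate 5 of 40 µM, in a range of -0.065 to 0.21. The cause was not tested.

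The labels give no replicate numbers. Position is taken here as the place of a sample's title number in the run of numbers of its group. These runs have gaps, so 1 library of each group had no partner in a contrast. With a replicate block on position, 3 members and 1684 transcripts were called for 30 µM against vehicle. For 40 µM against 30 µM, 0 members and 1 transcript were called, and ENSCPOT00000037181.1 had -0.044. At an unadjusted p under 0.05 in edgeR there were 4 of 64 members in that contrast, beside 1117 of 16664 transcripts. Under the block ENSCPOT00000046677.1 was called in neither contrast, with log2 fold changes of -0.42 (edgeR adjusted p = 0.112) and 0.42 (edgeR adjusted p = 0.527), beside -0.42 and 0.46 without it. The 4 same-position pairs correlated at 0.00 to 0.05 for 30 µM against vehicle and at -0.13 to 0.02 for 40 µM against 30 µM. In the 21 other pairs the values were -0.08 to 0.09 and -0.07 to 0.08. So few pairs cannot show whether samples at the same position belong together.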

Other observations

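Of the 84 members, 3 (of 16 such transcripts with a group mean of at least 1 TPM) were 411 bases long, a length noticed after the values were seen. Of these 16 transcripts, 6 had a difference of at least 0.8 at 40 µM and 12 h, and their median difference was 0.17. The 3 members had from 4.6 to 14.6 mean counts in those libraries, and no identifier could be matched to a gene.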
